A study of Homo sapiens with 6 samples.

Results

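The 10 genes described here encode keratins, the epithelial intermediate filament proteins: KRT7, KRT8, KRT18 and KRT19 of luminal, simple epithelia, KRT15 of basal cells, KRT10, KRT23 and KRT80 of differentiating or other epithelia, and KRT81 and KRT86 of the hair type. They were taken by name, as 10 of the 54 human keratin genes looked up and 10 of 54644 gene rows in the deposited tables, and each has a row. RNA was sequenced from SKBR3, an established HER2-amplified human breast adenocarcinoma line, in 2 states. CTTN cells carried lentiviral pLVX with the cDNA of cortactin (CTTN), a protein that binds branched actin, and control (CON) cells carried the empty pLVX vector. Both were stable populations selected with puromycin, with 3 libraries each that the depositors call biological replicates, and whether replicates came from separate infections was not given. The comparison asks what raised CTTN does to transcripts in these cells. The 6 libraries held 34887069 to 41279830 fragments assigned to genes. For the controls, the sample labels and the deposited sample table name different table columns, so the 3 control columns are called a, b and c, in table order, without replicate numbers.

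Keratin filaments are built from pairs, each of a type I (acidic) and a type II (basic) chain, and the genes of the types lie in clusters on separate chromosomes. Luminal cells of the mammary gland make KRT8 and KRT18 with KRT7 and KRT19, whereas basal and myoepithelial cells make KRT5 and KRT14, and pathologists use these sets to tell the cell layers apart. The hair keratins form the hard filaments of the hair shaft, and KRT81 transcripts are also known from some breast cancer cells.

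The labels were checked first on CTTN itself. Its CPM (counts scaled to the size of each library) were 793, 1011 and 520 in CTTN replicates 1, 2 and 3, and 299, 307 and 306 in controls a, b and c. Every CTTN library was above every control, and replicate 3 had the least CTTN of its group. The fitted log2 difference was 1.35 (SE 0.22, n = 3 and 3; edgeR quasi-likelihood test, adjusted p = 0.0276). Without CTTN replicate 1 the difference was 1.33 and was not called (adjusted p = 0.137). Without control a, b or c it was 1.33, 1.36 and 1.35, and again not called (adjusted p = 0.153, 0.170 and 0.157). These 4 fits called 11 to 27 genes in all. Without CTTN replicate 2 or 3 the difference was 1.10 or 1.57 and was called (adjusted p = 0.0020 and 0.00017). Of 6 genes that identify the line, 5 were tested and 0 were called by edgeR, DESeq2 or limma, with 0 at an unadjusted p under 0.05. Their most abundant, ERBB2, the HER2 receptor gene, lay between 7443 and 8460 CPM in all 6 libraries. CDH1, the E-cadherin gene, averaged 0.117 FPKM (a fragment count scaled to transcript length and library size), under the count filter.

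The CTTN libraries differed among themselves more than the controls did. Isoforms shorter than 1000 bases took 14.96, 12.2 and 19.2% of counts in CTTN replicates 1, 2 and 3, against 12.9, 12.3 and 11.9% in controls a, b and c. Isoforms of 4000 bases or more took 22.9, 29.4 and 17.1% against 28.1, 29.4 and 30.0%. Replicate 3 stood furthest toward short transcripts, replicate 1 lay between, and replicate 2 was within the control range on both measures. On the first principal component, which held 67.3% of the variance, CTTN replicates 1, 2 and 3 scored -24.2, 6.48 and -58.3 and the controls 20.9, 26.8 and 28.4. The median SD of log2 CPM over genes was 0.233 among the CTTN libraries and 0.0775 among the controls. The part of transcript length in the keratin differences was not tested, and values without single libraries are given beside the differences they move most.

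**Figure D1:**
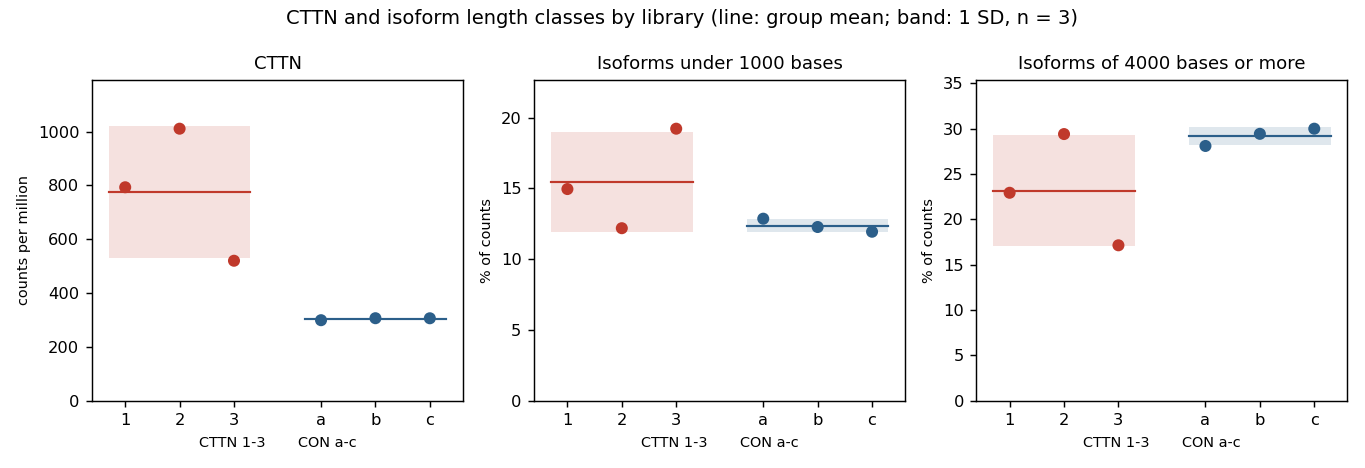
CTTN transcript level (CPM) and the percentage of counts from isoforms under 1000 bases and from isoforms of 4000 bases or more, for CTTN replicates 1 to 3 (red) and controls a to c (blue); lines are group means and bands 1 SD (n = 3). CTTN replicate 2 has the most CTTN, 1011 CPM, and length shares within the control range.

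SKBR3 cells expressed a mainly luminal set of keratins. Per length, the order of mean control levels was KRT8 (1849 ± 32.9 FPKM, SD, n = 3), KRT19 (1769 ± 46.8), KRT18 (1089 ± 29.9), KRT7 (932 ± 48.04), KRT81 (306 ± 12.7), KRT80 (49.3 ± 2.38), KRT10 (48.6 ± 3.20), KRT15 (8.65 ± 1.81), KRT86 (2.15 ± 0.016) and KRT23 (2.10 ± 0.334). The neighbours KRT80 and KRT10, and KRT86 and KRT23, did not differ beyond their spread among the controls. In the CTTN group the mean FPKM was 2564 for KRT19 and 1954 for KRT8, the reverse of their control order. By rank among all gene rows, KRT19 was 33rd, 36th and 30th in controls a, b and c and 25th, 28th and 27th in CTTN replicates 1, 2 and 3. KRT8 was 31st, 29th and 27th in the controls and 47th, 49th and 49th in the CTTN libraries. The 10 genes carried between 96.3 and 97.5% of all keratin FPKM in every library, and all keratins together 0.968 to 1.31% of gene counts. In bulk RNA, fewer cells that make a keratin and less of it per cell cannot be told apart.

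**Figure D2:**
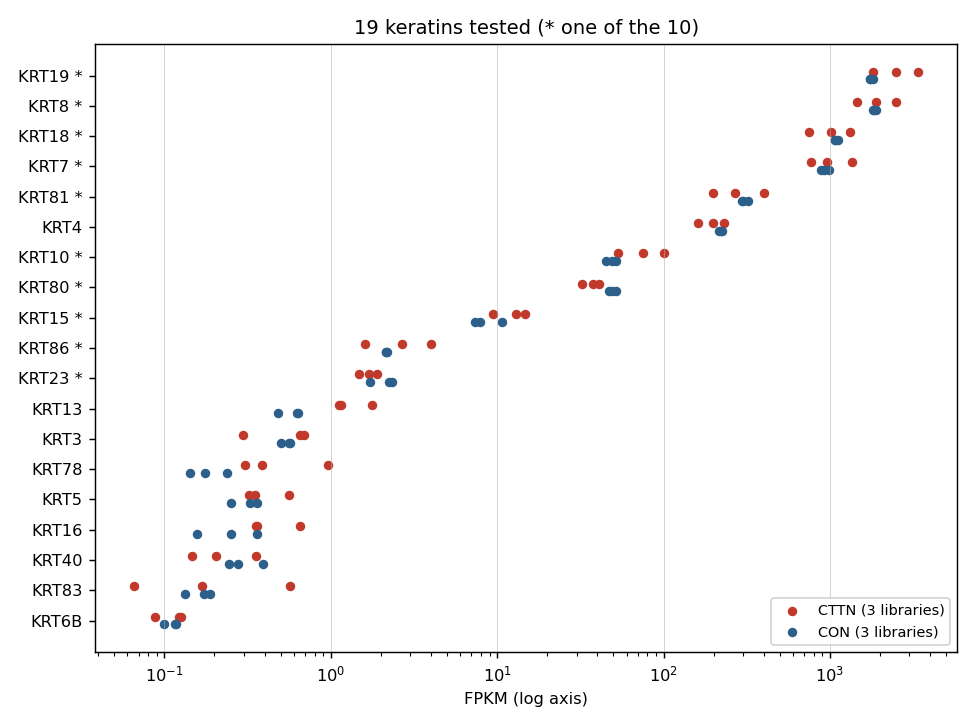
FPKM (log axis) of the 19 keratins that passed the count filter, each point a library of the CTTN (red) or CON (blue) group; an asterisk marks the 10 genes described. Levels run from KRT19 and KRT8 near the top of the scale to KRT6B, with the basal keratin KRT5 below 1 FPKM.

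None of the 10 keratins passed the test between CTTN and CON. All 10 cleared the count filter, and edgeR called 0 of them at an adjusted p under 0.05, beside 552 of 14433 genes tested, or 3.82% (296 higher and 256 lower with CTTN). At an unadjusted p under 0.05, the 10 gave 4 genes (KRT10, KRT15, KRT19 and KRT80), against 29.4% of all genes tested. DESeq2, fitted to the same counts, called 2 of the 10, KRT10 (adjusted p = 0.0288) and KRT80 (0.0294), against 14.3% of genes, and limma on log2 FPKM called 0. CPM of the groups did not overlap for 4 of the 10, against 38.7% of all genes tested: KRT10, KRT15 and KRT19 lay above the controls and KRT80 below. By fitted direction 5 were higher and 5 lower with CTTN, with a median log2 difference of 0.04, where all genes had 0.01. These counts for single genes are near the background. Without CTTN replicate 2, 4 of the 10 were called (KRT10, KRT19, KRT80 and KRT86), against 46.8% of genes, and without replicate 3 only KRT81 was, against 8.54%.

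**Figure D3:**
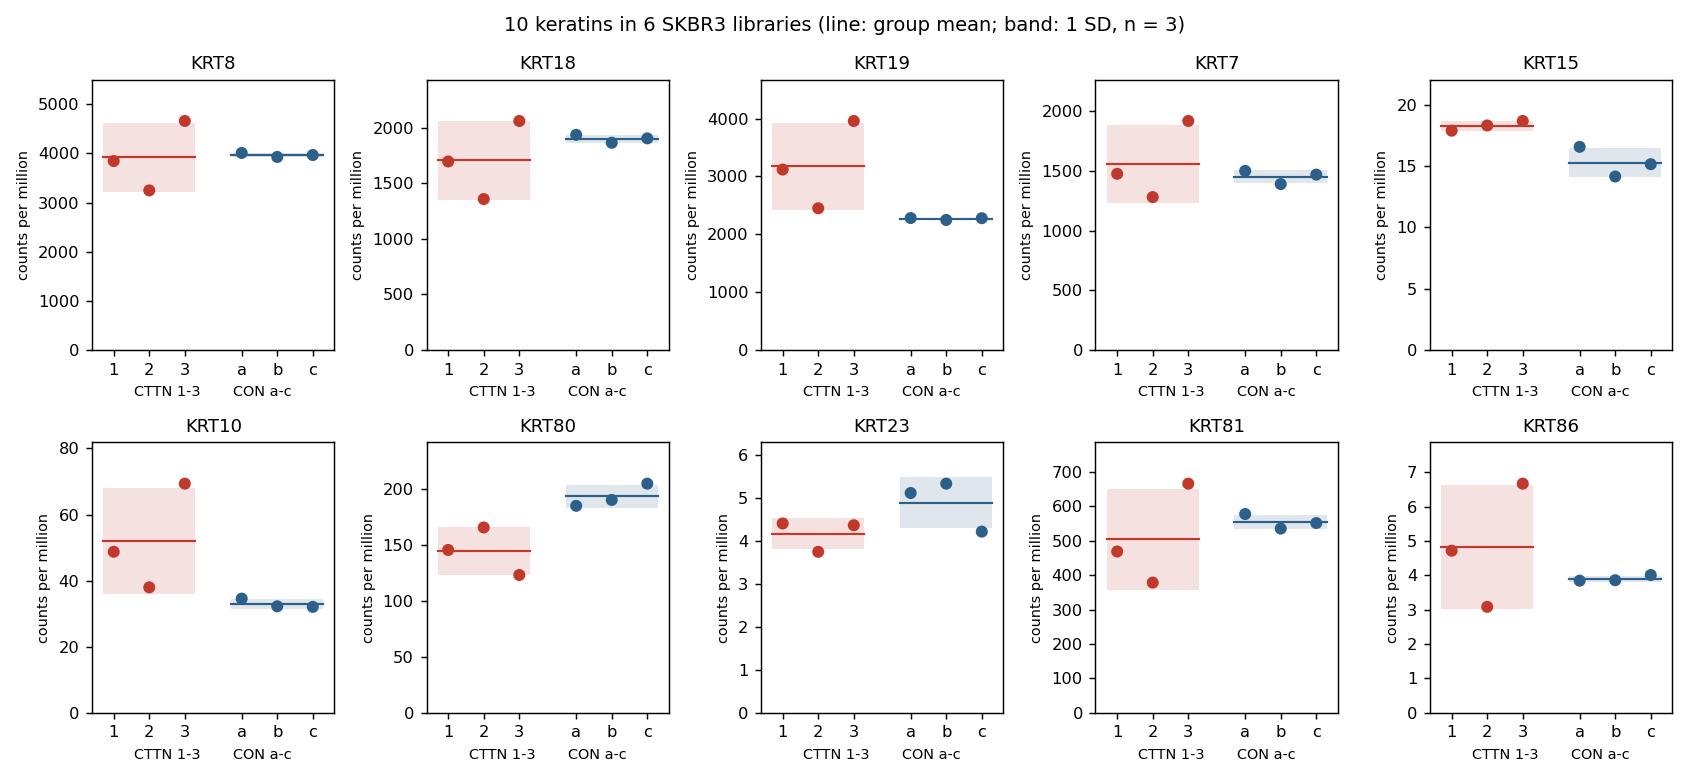
CPM of each of the 10 keratins in CTTN replicates 1 to 3 (red) and controls a to c (blue); lines are group means and bands 1 SD (n = 3). KRT10, KRT15 and KRT19 have all CTTN points above the controls, KRT80 has all below, and in the other 6 genes the groups overlap.

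KRT8 and KRT18 are the type II and type I partners of simple epithelia, and neither differed between the groups beyond the replicate spread. KRT8 was measured at 3846, 3248 and 4662 CPM in CTTN replicates 1, 2 and 3 and at 4011, 3929 and 3968 CPM in controls a, b and c. The controls fell inside the range of the CTTN libraries, of which replicate 3 was highest and replicate 2 lowest. The fitted log2 difference was -0.02 (SE 0.14, adjusted p = 0.936). KRT18 was measured at 1698, 1359 and 2063 CPM in the CTTN libraries and at 1937, 1866 and 1906 CPM in the controls. Again the control values lay within the CTTN range, with a log2 difference of -0.16 (SE 0.15, adjusted p = 0.484). The KRT18 value depended on the CTTN library left out: it was -0.32 without replicate 3 (adjusted p = 0.0915) and -0.02 without replicate 2 (adjusted p = 0.869). KRT7, the type II keratin of ductal and glandular epithelium, had 1475, 1280 and 1917 CPM against 1499, 1389 and 1468. Its groups overlapped too, and the log2 difference was 0.10 (SE 0.16, adjusted p = 0.657). Without replicate 3 the differences of KRT8 and KRT7 were -0.16 and -0.08, and without replicate 2 they were 0.09 and 0.22, none of them called.

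KRT19, the smallest keratin and a type I chain of luminal cells that lacks a tail domain, had higher CPM in each CTTN library than in each control. It was measured at 3119, 2450 and 3959 CPM in CTTN replicates 1, 2 and 3 and at 2281, 2248 and 2279 CPM in controls a, b and c. By CPM, replicate 2 was above the controls by the least and replicate 3 by the most. By FPKM replicate 2, at 1803, was below control a, at 1823. The log2 difference of 0.49 (SE 0.17) did not pass the test (adjusted p = 0.135). Without CTTN replicate 2 it was 0.64 with an adjusted p of 0.0035, and without replicate 3 it was 0.30 with an adjusted p of 0.117.

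Ratios taken inside each library compare keratins that share the same RNA and depth. The FPKM ratio of KRT19 to KRT18 was 2.46, 2.40 and 2.58 in CTTN replicates 1, 2 and 3 and 1.62, 1.62 and 1.63 in controls a, b and c. The control values were nearly identical, and the CTTN ratio averaged 1.53 times theirs, or 1.55 times without CTTN replicate 2. The CTTN mean was 2.48 ± 0.09 and the control mean 1.62 ± 0.002 (SD, n = 3 each). The part of transcript length in this ratio was not tested. Ratios to KRT18 did not overlap between groups for 30.1% of all other genes tested by FPKM and for 36.4% by counts, and KRT19 was among them on both scales. The same ratio for KRT8 to KRT18 was 1.87, 1.94 and 1.90 with CTTN and 1.68, 1.71 and 1.70 in the controls. This shift also kept the groups apart but was smaller, 1.12 times. KRT18 to KRT7 ran lower with CTTN, at 1.05, 0.971 and 0.966 against 1.14, 1.205 and 1.162. With 3 libraries against 3, an exact two-sided permutation test cannot give a p under 0.10, and the pairs were picked after their values were seen, so no p is given.

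Across all 45 pairs of the 10 genes, the FPKM ratios of the groups did not overlap for 25, and 22 of these were apart in the same direction by counts. Over all pairs of tested genes, ratios did not overlap for 31.8% by FPKM and 37.8% by counts. KRT10 took part in 8 of the 25 and KRT19 in 7. The 45 ratios share 10 genes and are not separate observations, so the difference from that background was not tested. KRT18 to KRT10, for example, was 13.4, 14.1 and 13.1 with CTTN and 21.8, 21.9 and 23.7 in the controls. Summed over types, the FPKM of type II keratins was 0.936, 1.004 and 0.941 times that of type I in CTTN replicates 1, 2 and 3 and 1.1504, 1.149 and 1.154 times in controls a, b and c. That difference rests on KRT19: with it left out of the type I sum, a choice made after seeing the data, the ratio was 3.04, 3.22 and 3.16 with CTTN and 2.91, 2.92 and 2.94 in the controls, so the direction reversed.

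**Figure D4:**
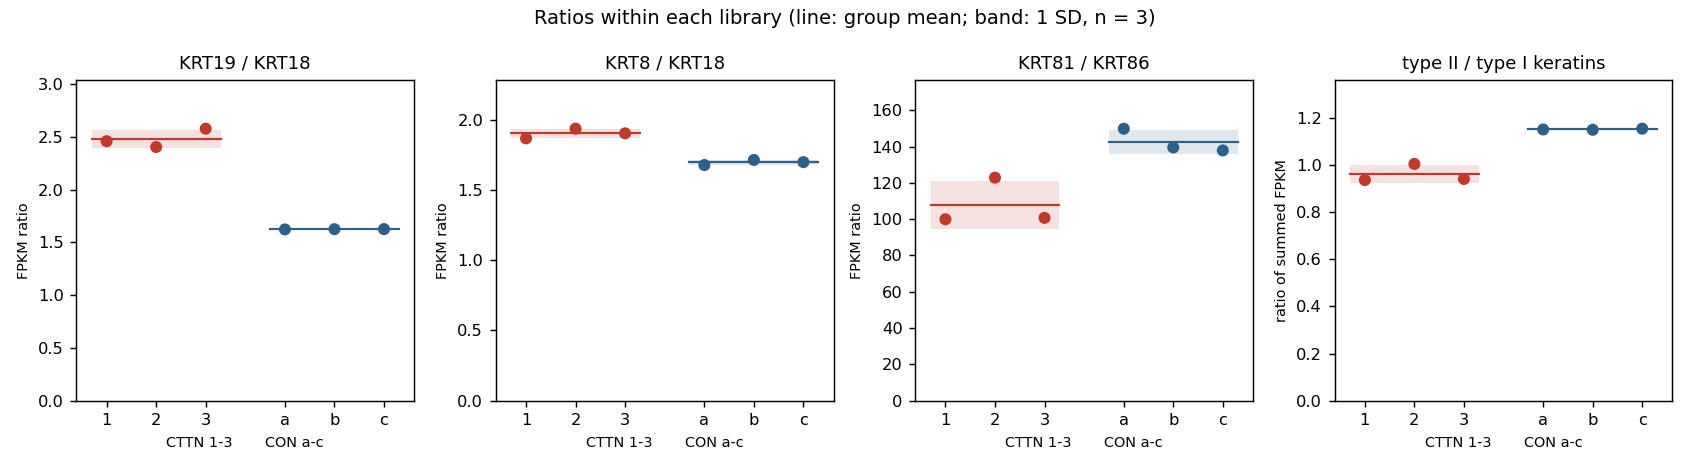
Within-library FPKM ratios of KRT19 to KRT18, KRT8 to KRT18 and KRT81 to KRT86, and of summed type II to summed type I keratins, for CTTN replicates 1 to 3 (red) and controls a to c (blue); lines are group means and bands 1 SD (n = 3). In each panel the groups are apart, with KRT19 to KRT18 at 2.40 to 2.58 with CTTN and at 1.62 to 1.63 in the controls.

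KRT15, a type I keratin of basal cells and of hair follicle stem cells, was expressed at a low level and had, relative to its mean, the smallest SD of CPM among the CTTN libraries of the 10. It had 17.9, 18.3 and 18.7 CPM in CTTN replicates 1, 2 and 3 and 16.6, 14.2 and 15.2 CPM in controls a, b and c. By CPM all CTTN libraries lay above the controls and close to each other. By FPKM they did not, with 13.02, 9.42 and 14.7 against 10.7, 7.35 and 7.88, so that replicate 2 was below control a. The log2 difference was 0.26 (SE 0.09) and did not pass the test (adjusted p = 0.136), and limma on log2 FPKM + 1 gave 0.47 (adjusted p = 0.212). Its row also lists the microRNA gene MIR6510. The defining basal keratins were nearly absent: KRT5, a type II chain of basal cells, ranged from 0.255 to 0.745 CPM, and its partner KRT14 averaged 0.0776 CPM with CTTN and 0.0166 in the controls, under the filter.

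KRT10, a type I keratin of differentiating suprabasal skin cells, had the largest fitted difference of the 10. It had 48.7, 37.9 and 69.3 CPM in CTTN replicates 1, 2 and 3 and 34.5, 32.2 and 32.04 CPM in controls a, b and c. All CTTN libraries were above the controls. Their order (replicate 3, then 1, then 2) was that of KRT19, and also of KRT7, KRT8, KRT18, KRT81 and KRT86. The log2 difference was 0.66 (SE 0.21, adjusted p = 0.110), and without CTTN replicate 2 it was 0.84 with an adjusted p of 0.0031. Without replicate 3 it was 0.40, with an adjusted p of 0.0604.

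KRT80, a type II keratin found at cell edges near desmosomes, went the other way. It had 145, 166 and 123 CPM in CTTN replicates 1, 2 and 3 and 185, 190 and 205 CPM in controls a, b and c. Every CTTN library was below every control, replicate 3 by the most. The log2 difference was -0.42 (SE 0.12, adjusted p = 0.095). Without CTTN replicate 2 it was -0.53 (adjusted p = 0.0040), without replicate 3 it was -0.31 (adjusted p = 0.0552), and without replicate 1 it was -0.42 (adjusted p = 0.273). DESeq2 called it with all 6 libraries. KRT23, a type I keratin first described in pancreatic cells, was near the lower end with 3.75 to 4.41 CPM in the CTTN group and 4.22 to 5.34 in the controls. Those ranges overlapped (log2 difference -0.23, SE 0.14, adjusted p = 0.285).

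**Figure D5:**
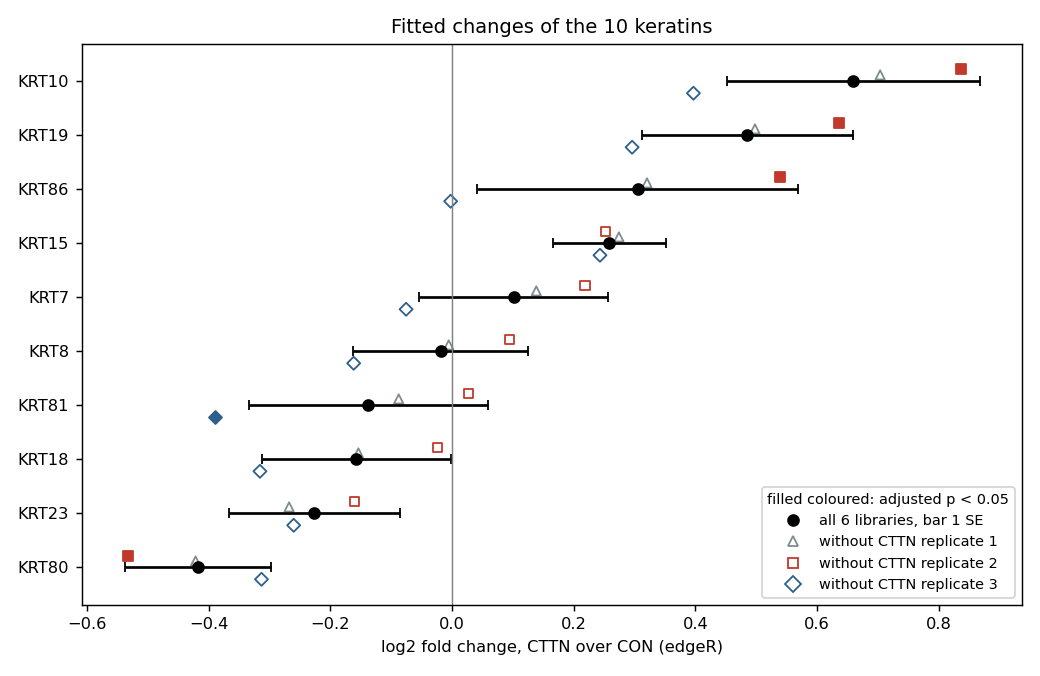
Fitted log2 difference of the 10 keratins, CTTN over CON (edgeR), with all 6 libraries (black, bar 1 SE) and without CTTN replicate 1 (triangles), 2 (squares) or 3 (diamonds); filled coloured symbols have an adjusted p under 0.05. Leaving out replicate 2 gives 4 calls, KRT10, KRT19, KRT86 and KRT80, leaving out replicate 3 gives KRT81, and leaving out replicate 1 gives none.

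The hair keratins KRT81 and KRT86, both type II, lay far apart in level. KRT81 had 469, 378 and 666 CPM in CTTN replicates 1, 2 and 3 and 578, 535 and 552 CPM in controls a, b and c. Replicate 3 was above the controls and the other CTTN libraries below them, and the log2 difference was -0.14 (SE 0.20, adjusted p = 0.633). Without CTTN replicate 3 it was -0.39 with an adjusted p of 0.0469, and without replicate 2 it was 0.03 with an adjusted p of 0.887. KRT86 had 4.72, 3.08 and 6.67 CPM against 3.85, 3.86 and 4.01. Its controls fell inside the CTTN range as well (log2 difference 0.30, SE 0.26, adjusted p = 0.426), and the difference depended on the CTTN library left out. Without replicate 3 it was -0.002 (adjusted p = 0.995), and without replicate 2 it was 0.54 and called (adjusted p = 0.0267). The FPKM ratio of KRT81 to KRT86 was 99.9, 123 and 101 with CTTN and 150, 139 and 138 in the controls. The ratio was lower in every CTTN library than in every control.

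KRT86 counts must be read beside the sequence it shares with KRT81. In RefSeq positions on GRCh38.p14, KRT81 lies at chr12:52285913-52291534, on the minus strand, wholly inside the span of KRT86 at chr12:52274645-52309163, on the plus strand. Over the aligned coding sequences of the GENCODE transcripts ENST00000327741 (KRT81) and ENST00000293525 (KRT86), 89.6% of positions were alike. The longest run shared by the full transcripts was 605 bases, and 27.0% of the 100-base windows of the KRT86 transcript occurred unchanged in KRT81. KRT83, the hair keratin next to them, was 89.3% identical to KRT81 over the coding sequence, yet 0 of its 100-base windows occurred in KRT81. The KRT86 row held 1.01, 0.815 and 1.002 counts per 100 KRT81 counts in CTTN replicates 1, 2 and 3 and 0.666, 0.721 and 0.727 in controls a, b and c. How far fragments of KRT81 entered the KRT86 row was not tested. That row also lists AC021066.3.

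The other genes of the 10 sit in the keratin clusters of chromosomes 12 and 17. On GRCh38.p14, KRT8 (chr12:52897191-52949860) and KRT18 (chr12:52948855-52952906) overlap at their ends, the only type I gene in the type II cluster. KRT80 (chr12:52168996-52192014) and KRT7 (chr12:52233243-52255853) lie beside the hair keratins. KRT10 (chr17:40818117-40822614), KRT23 (chr17:40922700-40937646), KRT15 (chr17:41513745-41518890) and KRT19 (chr17:41523617-41528308) are the type I genes of chromosome 17. Of these chromosome 17 genes, KRT10, KRT15 and KRT19 had CPM above the controls in every CTTN library, and KRT23 had overlapping groups. By FPKM, CTTN replicate 2 was below control a for KRT15 and KRT19. On chromosome 12, KRT80 lay below the controls, and KRT7, KRT8, KRT18, KRT81 and KRT86 had overlapping groups. CPM of the groups did not overlap for 38.7% of all genes tested. The part of gene position in these differences was not tested.

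At the level of single isoforms, 64 of the 101 keratin isoforms listed for the 10 genes were tested and edgeR called 0, as it called 0 of all 58275 isoforms (0%). At an unadjusted p under 0.05 it gave 7 of the 64 and 3489 of all, and DESeq2 called 1180 isoforms, among them 1 of the 64, KRT80 ENST00000394815 (log2 difference -0.45, adjusted p = 0.0143). KRT19 was almost a single form, with 98.3% of its isoform counts in ENST00000361566, and KRT81 had all of them in ENST00000327741. KRT15 was spread over several forms. Its main form ENST00000393976 had 252, 191 and 266 counts in CTTN replicates 1, 2 and 3 and 143, 112 and 146 in controls a, b and c. The CTTN values were all higher, with a log2 difference of 0.81 (SE 0.26) that did not pass the test (adjusted p = 0.791). The 5237-base form ENST00000254043 had 64.4, 168 and 8.62 counts against 133, 121 and 141, so that the CTTN libraries lay on either side of the controls. For KRT23, the shorter form ENST00000436344 had 0.56, 5.14 and 7.65 counts with CTTN and 40.4, 19.6 and 21.1 in the controls. These counts are few, and the log2 difference of -2.51 (SE 0.85) had an adjusted p of 0.791.

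Among the other 44 keratins, 9 passed the filter, and edgeR, DESeq2 and limma called 0 of those. At an unadjusted p under 0.05 edgeR gave 2 (KRT13 and KRT78), against 29.4% of all genes tested. KRT4, a type II keratin of internal stratified epithelia, was the most abundant of them. It had 518, 457 and 556 CPM in CTTN replicates 1, 2 and 3 and 606, 604 and 588 CPM in controls a, b and c. By CPM all CTTN libraries lay below the controls, by FPKM the groups overlapped, and the log2 difference was -0.23 (SE 0.10, adjusted p = 0.170). Its type I partner KRT13 was low, with 0.931 to 1.79 CPM in the CTTN libraries and 0.786 to 0.833 in the controls. The log2 difference was 0.82 (SE 0.28) and did not pass the test (adjusted p = 0.124). The study, by a 1.5-fold cutoff, lists KRT13 among its upregulated genes linked to trastuzumab resistance. KRT78 had 0.622 to 0.667 CPM with CTTN and 0.226 to 0.453 in the controls (log2 difference 0.93, SE 0.31, adjusted p = 0.118). Of the 9, CPM of the groups did not overlap for KRT4, KRT13 and KRT78, against 38.7% of all genes tested. The remaining tested keratins also had under 2 CPM in all 6 libraries. These were KRT3 of the cornea (0.691 to 1.53 CPM), KRT5, and KRT6B (0.226 to 0.346) and KRT16 (0.208 to 0.910) of activated skin. KRT40 (0.346 to 0.792) and KRT83 (0.133 to 1.001) of hair completed the set. The 35 keratins under the filter included KRT14, KRT17, KRT20 and all 9 of the inner root sheath.

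Processed pseudogenes of KRT8 and KRT18 are numerous and can take reads from their parents. The 49 rows named for KRT8 pseudogenes alone summed to 67.1, 60.2 and 73.9 CPM in CTTN replicates 1, 2 and 3 and to 77.0, 75.6 and 72.1 CPM in controls a, b and c, small beside KRT8 itself. The most abundant, KRT8P3, had 43.8 to 50.5 CPM with CTTN and 54.8 to 58.5 in the controls. The 65 rows named for KRT18 pseudogenes summed to between 2.29 and 3.31 CPM in all libraries. Of these rows, edgeR tested 9 and 1 and called 0, as did DESeq2 and limma. At an unadjusted p under 0.05 edgeR gave 3, against 29.4% of all genes tested.

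Over the 6 samples, the profile most like that of KRT8 among 11879 genes that are not keratins was MCUR1 (Pearson r 0.998 of log2 FPKM + 1), followed by CHD3 and PSAP (both 0.997). The closest non-keratin genes to KRT18 were CERS4 (0.993), MZB1 (0.990) and RNF187 (0.989). Those closest to KRT81 were C9orf40 (0.995), RNF187 (0.994) and CIB1 (0.994). The 6 points share library composition and the spread among CTTN replicates, so these values describe likeness only. RNF187 appears for both KRT18 and KRT81.

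Genes that work with keratins were counted against the 3.82% of all genes that edgeR called. Of 21 desmosome and linker genes, which tie keratin filaments to cell junctions, 16 were tested, and edgeR and limma called 0. At an unadjusted p under 0.05 edgeR gave 6, against 29.4% of all genes tested, and DESeq2 called 3, against 14.3%. The median log2 difference was -0.25. By fitted direction 4 were higher and 12 lower. CPM of the groups did not overlap for 8, 3 above the controls and 5 below, against 38.7% of all genes tested. Their most abundant gene, JUP (plakoglobin), had 759, 740 and 807 CPM in CTTN replicates 1, 2 and 3 and 636, 589 and 627 CPM in controls a, b and c. Unlike most of the list, JUP was higher in every CTTN library (log2 difference 0.32, SE 0.09, adjusted p = 0.086). Summed over the list, CPM was 2381, 2682 and 2284 in CTTN replicates 1, 2 and 3 and 2372, 2383 and 2539 in controls a, b and c. Those sums overlapped, but by FPKM they were 693, 667 and 763 with CTTN, all above the controls at 605, 606 and 618. The part of transcript length in this list was not tested. Of 15 other intermediate filament genes, 10 were tested and edgeR called 2, with 6 at an unadjusted p under 0.05, against 29.4% of all genes. DESeq2 called 3, against 14.3%, and limma called 0. CPM of the groups did not overlap for 7, 3 above the controls and 4 below, against 38.7% of all genes tested. BFSP1, a lens filament gene, rose with CTTN (log2 difference 0.94, SE 0.14, adjusted p = 0.0215), and NES, which encodes nestin, fell by 0.46 on the log2 scale (SE 0.08, adjusted p = 0.0322). LMNA, for lamins A and C, was the most abundant of these genes and was not called (0.33, adjusted p = 0.129). VIM, the vimentin gene of mesenchymal and basal cells, was at 0.156 to 0.425 CPM in all libraries.

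Of 16 cornified envelope genes, which act in skin cells rich in KRT10, 5 were tested and 1 was called, with 3 higher and 2 lower by fitted direction. TGM1, the transglutaminase that crosslinks the envelope, had 48.8, 49.8 and 44.1 CPM in CTTN replicates 1, 2 and 3 and 28.6, 32.6 and 31.6 CPM in controls a, b and c. All CTTN values were higher, with a log2 difference of 0.62 (SE 0.10, adjusted p = 0.0213), and it was also the most abundant of the list. Of 13 basal mammary markers, 8 were tested and 1 was called: LAMB3, a laminin-332 chain, fell by 0.54 on the log2 scale (SE 0.10, adjusted p = 0.0315), in a row that also lists MIR4260. By fitted direction 3 of the 8 were higher and 5 lower. CPM of the groups did not overlap for 4, 2 above the controls and 2 below, against 38.7% of all genes tested. EGFR, the most abundant of these, had overlapping groups (-0.34, adjusted p = 0.324). Of 17 luminal markers, 14 were tested, and edgeR and limma called 0. At an unadjusted p under 0.05 edgeR gave 6, against 29.4% of all genes tested, and DESeq2 called 3, against 14.3%. By fitted direction 7 of the 14 luminal markers were higher and 7 lower. CPM of the groups did not overlap for 8 of them, 4 above the controls and 4 below, against 38.7% of all genes tested. The most abundant single-gene row was CLDN4, a tight junction claudin (0.54, adjusted p = 0.086), under a row that joins CLDN7 with other genes. BFSP1, NES, TGM1 and LAMB3 each lost the call without CTTN replicate 1 and without each control, where adjusted p lay between 0.115 and 0.200. Their log2 differences in those fits were 0.90 to 0.95 for BFSP1, -0.50 to -0.45 for NES, 0.56 to 0.66 for TGM1 and -0.59 to -0.49 for LAMB3. All 4 were called without CTTN replicate 2, without replicate 3 and by DESeq2, and limma on log2 FPKM called only TGM1 of them.

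Markers of other cell types were low. Of 15 such genes, 5 were tested and 1 was called: CDH5, VE-cadherin of endothelium, had 5.29, 7.13 and 4.43 CPM in CTTN replicates 1, 2 and 3 and 15.4, 16.8 and 15.2 CPM in controls a, b and c. It was lower in every CTTN library and fell by 1.49 on the log2 scale (SE 0.17, adjusted p = 0.0096), and without CTTN replicate 1 or any control the difference was -1.52 to -1.45 and not called (adjusted p between 0.0700 and 0.0898). It was called without replicate 2 (-1.70), without replicate 3 (-1.35), by DESeq2 and by limma. The endothelial marker PECAM1 averaged 0.112 CPM with CTTN and 0.0811 in the controls, and the leukocyte marker PTPRC 0.241 and 0.103. HBB, a red cell gene, had no counts in any library. The list summed to 1364, 1166 and 1575 CPM against 1159, 1199 and 1166, nearly all of it in a row that joins the macrophage marker CD68 with EIF4A1 and other genes. The part of other cells in the keratin values was not tested.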

How the data were processed

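Poly(A) RNA libraries (stranded TruSeq) of 3 CTTN and 3 control SKBR3 populations were sequenced in pairs. Per the labels, reads were converted with bcl2fastq 2.20.0, trimmed with Trimmomatic, aligned to GRCh38 with STAR and quantified with Cufflinks; the study's methods name another trimmer and an older build, but the deposited loci are GRCh38. The deposited count tables hold expected counts, estimated fragments divided by a single factor per library, and the deposited FPKM tables hold FPKM. Whether counting used the strand was not stated, so overlapping genes may share fragments. Rounded counts were fitted with edgeR 4.0.16 (TMM, filterByExpr, robust quasi-likelihood F test, Benjamini-Hochberg adjustment over all genes or isoforms tested, called at an adjusted p under 0.05). DESeq2 1.42.0 and limma 3.58.1 on log2 FPKM plus 1 or 0.1, RLE factors, no filter, unscaled counts, a 1.5-fold minimum and leaving out each library were alternatives. Log2 differences are CTTN minus CON. CPM and FPKM are given per library; SE comes from the fit. Coding sequences were aligned with Biopython 1.88. The 10 members and the gene lists were chosen with earlier results of these data known. Named genes are the 10 members, other tested keratins, CTTN, up to 4 called genes with the largest change plus the most abundant gene of each other list (keratin-linked, filament, envelope, basal, luminal, SKBR3 and other cell type lists), the 3 non-keratin genes of mean FPKM at least 1 most correlated with KRT8, KRT18 and KRT81, and the most abundant pseudogene. A few absent markers were named after their values were seen. The control columns carry no certain replicate number, so samples were not paired. At 34887069 to 41279830 fragments per library, counting error is small beside replicate spread for the abundant keratins and matters for those under 1 CPM.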

Additional observations from a re-analysis of the deposited data

How the results depend on the processing

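The count of called genes, 552, was 2069 by DESeq2, 185 and 180 by limma on log2 FPKM plus 1 and plus 0.1, and 11 to 6890 when a library was left out. It was 17 without CTTN replicate 1, 6890 without replicate 2, 1245 without replicate 3, and 27, 11 and 15 without controls a, b and c. With RLE factors, no filter, unscaled counts or a 1.5-fold minimum it was 543, 712, 555 and 434. Of the 10 keratins, 0 were called in the reported fit, 2 by DESeq2 and 0 to 4 when a library was left out, with 0 under the other alternatives. The count of called isoforms, 0, was 1180 by DESeq2 and 0 under the other alternatives run. The causes were not tested. For the 10 keratins' log2 differences, 107 of the values under alternatives kept their direction and side of the threshold, 7 came past it and 6 reversed. Those that reversed were small. KRT8 (-0.0186) was 0.04396 in both limma fits. Over the fits that left out a library, KRT8 ranged from -0.162 to 0.0940, KRT7 from -0.0756 to 0.218, KRT81 from -0.389 to 0.0267 and KRT86 from -0.00237 to 0.539. The ratios KRT19 to KRT18, KRT8 to KRT18 and KRT81 to KRT86 were recomputed from counts and without each library, alternatives chosen after seeing the data. All 21 values moved by less than the replicate spread. For the values without a library this had to be so, whatever the data. With 3 libraries in a group, leaving any of them out moves the group mean by less than its SD. Those values therefore cannot show whether the ratios are stable, and only the values from counts could have moved further. The ratio of summed type II to type I keratins, 0.834 times the controls with CTTN, was 1.08 times without KRT19, an alternative also chosen after seeing the data. No paired analysis was possible because the control columns carry no certain replicate number: the sample labels name other columns for them than the deposited sample table does. The replicate block was therefore not run. Depth limits the keratins under 1 CPM and the minor isoforms.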

Other observations

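The isoform table splits part of KRT8 between assembled forms that no reference transcript matches exactly. A form of 1526 bases had 7812, 0.00337 and 29041 estimated counts in CTTN replicates 1, 2 and 3 and 945, 62.7 and 126 in controls a, b and c. A form of 2041 bases had 1101, 6884 and 105 counts against 10909, 8579 and 10190. Among the CTTN libraries, those with more of the shorter form had less of the longer. Neither passed the edgeR test (adjusted p = 0.791 and 0.800), and the reference form ENST00000293308 held 93.3, 93.8 and 82.6% of KRT8 isoform counts in CTTN replicates 1, 2 and 3 and 91.4, 93.5 and 92.5% in controls a, b and c. The shorter form made up 17.1% in CTTN replicate 3.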
